A study of Mus musculus with 16 samples.

Results

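Adipocyte precursors (APCs) and fibro-inflammatory progenitors (FIPs) are fractions of the Pdgfrb-expressing stromal cells of fat. Here they had been sorted by flow cytometry, without culture, out of the epididymal fat depot of postnatal day 7 mice of the C57BL/6 strain, and RNA-seq had been made of 4 libraries of each. These 8 of the series' 16 libraries were compared with each other only. The other 8 were 4 libraries of mesothelial-like cells and 4 of smooth muscle cells, sorted from the same depot, strain and age. The labels give Pdgfrb as the sorting marker of every group and name no transgene or treatment. In the published sorting scheme for these populations FIPs carry the surface antigen LY6C, and APCs lack LY6C and CD9. The Ly6c1 level (94.5 normalized counts on average in APCs, 2759.9 in FIPs) therefore describes the gate and was not read as a result. The labels do not say whether the 4 libraries of a group came from separate animals or sorts, so the p-values below rest on the spread between libraries alone, and that spread may be technical.

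Fat depots hold stromal cells at different distances from the fat cell. Committed preadipocytes lie along vessels, express the nuclear receptor PPARG and turn into fat cells readily. Progenitors that express Dpp4 lie in the connective tissue around the depot, resist differentiation, and in adult visceral fat have been linked to fibrosis and inflammation. Fat formation is held back by canonical Wnt, Notch and TGF-beta signals and helped by insulin-like growth factors, glucocorticoids and some fibroblast growth factors, so the receptors and ligands that the cells themselves make are of interest.

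The values are normalized counts, which are reads per gene divided by a factor per library, and are given in the order of replicates 1 to 4. A gene was tested where at least 4 of the 8 libraries reached a value of 10, which held for 13757 of 27179 genes. Differences are APCs minus FIPs on log2(value + 1), so a negative difference means higher in FIPs, and the added 1 shrinks those of low genes. A gene was called at a limma adjusted p (Benjamini-Hochberg) under 0.05 and a difference of at least 1, that is, 2-fold. By this rule 1362 genes, 9.9% of those tested, were called. Of these, 715 (5.2%) were higher in APCs and 647 (4.7%) higher in FIPs, and the median difference of all genes was -0.01. In 1332 of the 1362 the 4 APC libraries did not overlap the 4 FIP libraries, which was so for 41.4% of all genes tested. Scaling the libraries to equal totals instead moved the median of all genes to 0.24 and raised the part of the calls that lay on the APC side from 52.5% to 69.5%. Of the genes named here, 17 that were called higher in FIPs lost the call with that scaling: Axl, C1qtnf1, Ddr2, Egr3, Gpc6, Hoxd9, Hpgd, Ifit2, Itgb5, Lif, Nid1, Ntn1, Oas2, Osr1, Pfkfb4, Postn and Tlr4. The plot of difference against level shows calls over the whole range of counts.

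**Figure D1:**
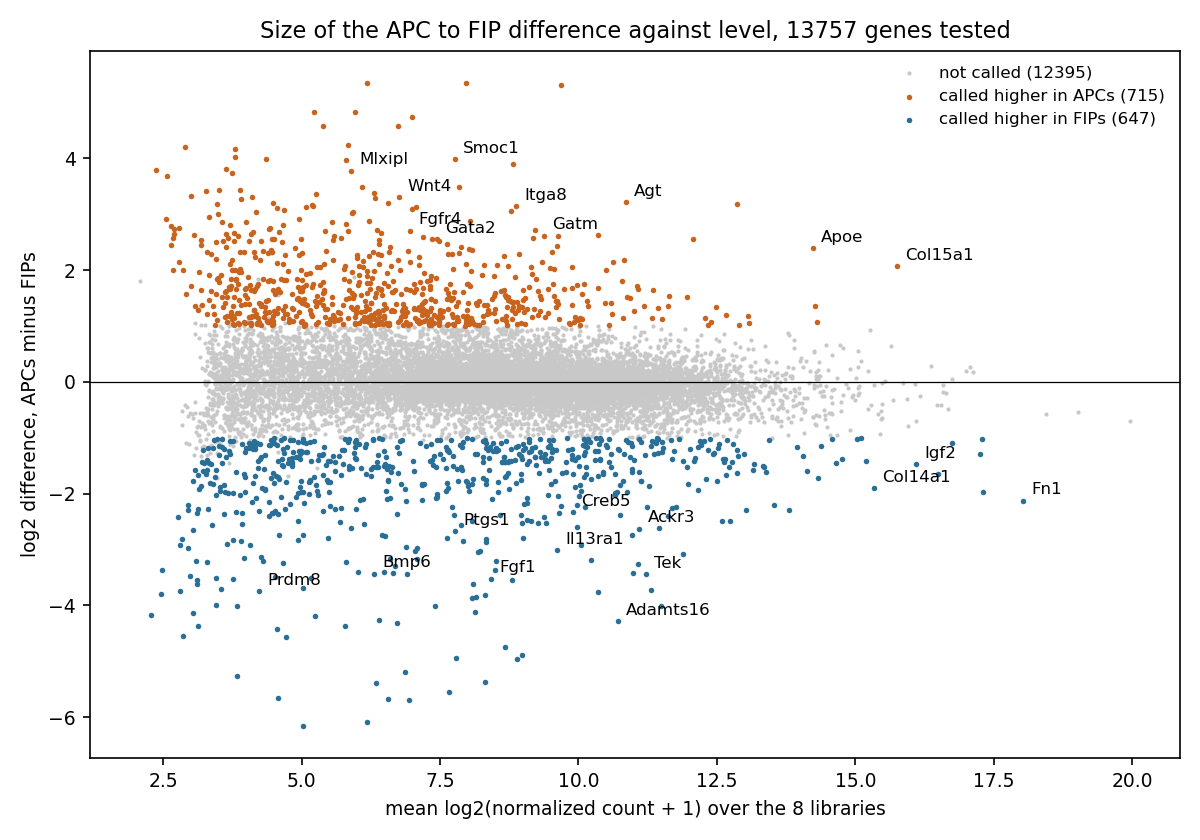
Each point is a gene; the x axis is its mean log2(normalized count + 1) over the 8 libraries and the y axis its log2 difference, APCs minus FIPs. The 715 genes called higher in APCs (orange) and the 647 called higher in FIPs (blue) lie beyond 1 and -1, and include genes with high counts such as Col15a1 (2.07) and Fn1 (-2.12).

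The libraries held from 11.2 to 27.5 M reads. Replicate 4 of the APCs was the shallowest and stood apart from the other APC libraries: its correlation with them across genes went down to 0.972, against 0.992 to 0.995 among replicates 1 to 3 and 0.992 to 0.994 among the FIPs. Without it 753 genes were called higher in APCs and 677 higher in FIPs, and 1291 of the 1362 calls were kept in the same direction. Calls of named genes that it decides are marked where they stand. Counts per list can change without it as well, and not each such count is marked. Without it, 17 replication and mitosis genes were called higher in APCs in place of 14. For Wnt ligands and modulators the number higher in APCs was 3 in place of 4. For steroid and retinoid enzymes the number higher in FIPs was 5 in place of 3. Markers of other cells were compared as summed levels. The endothelial, macrophage, lymphocyte and erythroid lists held 26 tested genes, of which limma called 3, beside 9.9% of all genes. Egfl7 and Kdr were higher in APCs and Tek was higher in FIPs. The endothelial list summed to 4530 to 5114 normalized counts in APCs and 12208 to 13463 in FIPs, where Tek alone was at 7412 to 8276. The sums of the macrophage, lymphocyte and erythroid lists overlapped between the groups. By edgeR and by DESeq2 on recovered reads 2 of the 7 macrophage and myeloid genes were called higher in APCs as well. The mature adipocyte list summed to 2026 to 2571 normalized counts in APCs and 137 to 175 in FIPs. All 6 of its tested members, Plin1, Adipoq, Lipe, Retn, Cidec and Adrb3, were higher in APCs (median 3.04), with Adipoq, adiponectin, at 261 ± 96.5 in APCs and 12.5 ± 3.19 in FIPs. The leukocyte antigen Ptprc stayed under 10 in each of the 8 libraries. The mesothelial list summed to 6071 to 6596 normalized counts in APCs and 4613 to 5322 in FIPs. Of its 15 tested members 6 were higher in FIPs, at low levels (Msln 25.9 to 35.4 in FIPs against 4.03 to 21.1 in APCs), and 1, Cldn15, in APCs. Without APCs replicate 4, 10 were called higher in FIPs. The pericyte list summed to 12876 to 14533 in APCs and 6339 to 7014 in FIPs, with 9 of 14 higher in APCs, while its member Rgs5 was at 37.2 to 51.6 in APCs and 13.9 to 28.6 in FIPs. Of 15 tested contractile smooth muscle genes 5 were higher in APCs, among them Myh11 (140.2 ± 26.3 against 41.3 ± 11.1). In bulk RNA, more cells of a kind and more RNA per cell cannot be told apart, and the part of admixed cells in the results was not tested.

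Across 37 lists of genes by role, the share of members called varied. The lists and their members were chosen with earlier results of these data known. The shares therefore describe the members chosen and do not rank the classes of genes. Among 210 transcription factor genes tested 11.9% were called, near the 9.9% of all genes, and 18 were higher in APCs and 7 in FIPs (median difference 0.05). Receptors were called in 33.0% of 200 genes (37 higher in APCs, 29 in FIPs, median 0.12), secreted ligands and their modulators in 38.7% of 168 (31 and 34, median -0.04), and matrix genes and their proteases in 32.5% of 209 (35 and 33, median -0.12). Metabolic genes were called in 19.0% of 336, 50 higher in APCs and 14 in FIPs (median 0.22). The chart of lists shows both directions side by side in most receptor, ligand and matrix lists.

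**Figure D2:**
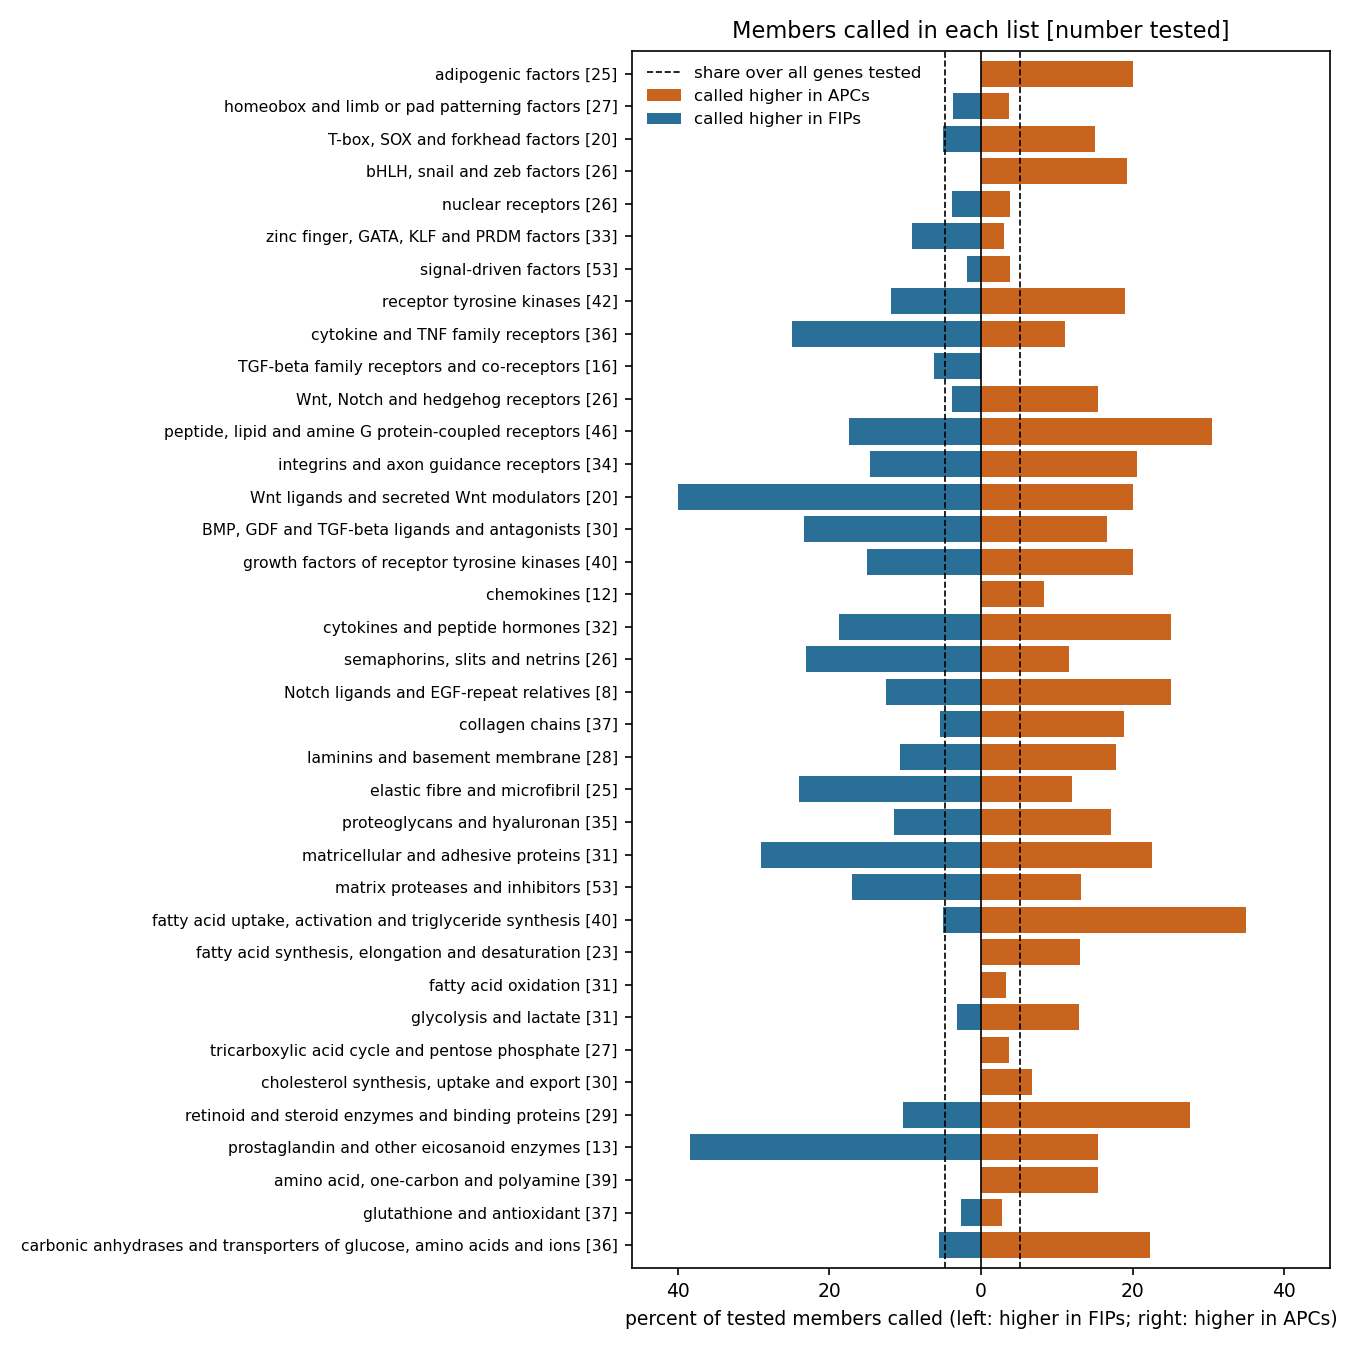
Bars give the percent of each list's tested members called higher in APCs (orange, right) and higher in FIPs (blue, left); brackets give the number tested and dashed lines the shares over all genes tested, 5.2% and 4.7%. The Wnt list reaches furthest left, with 8 of 20 members higher in FIPs, and the list of fatty acid uptake and triglyceride synthesis furthest right, with 14 of 40 higher in APCs.

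Of 25 tested adipogenic transcription factors 5 were higher in APCs, Mlxipl, Gata2, Klf15, Pparg and Cebpa (median difference 0.33). By limma 0 were higher in FIPs, by edgeR and DESeq2 on recovered reads also 0, and at an unadjusted p under 0.05, whatever the size, 7 were higher in FIPs. Mlxipl encodes ChREBP, the factor that turns on lipid synthesis genes when glucose is plentiful (Entrez gene 58805, chromosome 5, 135089890 to 135139768; coordinates here are RefSeq gene spans on GRCm38). It was at 300.0, 179, 249 and 173 normalized counts in APCs and at 19.8, 15.7, 8.59 and 19.0 in FIPs (log2 difference 3.78 ± 0.26 SE, limma adjusted p = 2.40e-07). The lowest APC library was above the highest FIP library by a wide margin. Klf15, a Kruppel-like factor induced by glucocorticoids during differentiation, was at 282, 303, 325 and 291 normalized counts in APCs and at 86.1, 80.4, 81.2 and 88.9 in FIPs (log2 difference 1.82 ± 0.09 SE, limma adjusted p = 1.64e-08). Gata2, a zinc finger factor known to restrain preadipocyte differentiation, was at 412, 425, 445 and 405 normalized counts in APCs and at 65.3, 60.1, 102 and 63.5 in FIPs (log2 difference 2.55 ± 0.15 SE, limma adjusted p = 6.16e-08). Gata2 thus lay on the same side as Pparg (1.53) and Cebpa (1.52), with no overlap between the groups.

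Factors that mark earlier cells of the adipose lineage did not reach the 2-fold limit. Ebf1 (1546 ± 93.0 in APCs, 1911 ± 144 in FIPs, SD, n = 4; difference -0.30) and Ebf2 (-0.49), which act with PPARG in fat cells, were under it, as were Zfp423 (-0.76), a marker of committed preadipocytes, and Zfp521 (-0.88), an inhibitor of commitment. Prrx1, a homeobox factor of limb and body wall mesenchyme, had a difference of -0.95 and was called higher in FIPs without APCs replicate 4 (-1.05). In each of these 5 genes the 4 FIP libraries lay above the 4 APC libraries.

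Among the other factors, those called higher in FIPs were few. Creb5, a bZIP factor that pairs with AP-1 proteins, was at 506, 512, 405 and 306 normalized counts in APCs and at 2055, 2302, 2141 and 2074 in FIPs (log2 difference -2.34 ± 0.14 SE, limma adjusted p = 6.08e-08). Osr1, an odd-skipped factor of connective tissue progenitors, was at 1018, 1182, 1044 and 1183 normalized counts in APCs and at 2361, 2442, 2777 and 2611 in FIPs (log2 difference -1.20 ± 0.07 SE, limma adjusted p = 8.07e-08). For both genes every FIP library lay above every APC library. Prdm8, a histone methyltransferase family member, was at 69.1 ± 13.5 in FIPs and 0 to 14.1 in APCs. Egr3, an immediate early factor, was called at -1.17, but not without APCs replicate 4, where its difference was -0.94.

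Heyl, Id1, Msc, Sox9 and Ets1 were among the factors higher in APCs. Heyl, a repressor induced by Notch, was at 485, 447, 517 and 422 normalized counts in APCs and at 117, 156, 166 and 118 in FIPs (log2 difference 1.75 ± 0.13 SE, limma adjusted p = 3.70e-07). Id1, an inhibitor of basic helix-loop-helix factors that BMP signals induce, averaged 222 ± 46.7 in APCs and 71.4 ± 17.6 in FIPs (log2 difference 1.64 ± 0.20 SE, limma adjusted p = 3.04e-05). Its relative Id3, also induced by BMP signals, was not called (5699 ± 755 in APCs, 6094 ± 484 in FIPs; -0.10). Msc, a basic helix-loop-helix repressor, differed by 2.05, and Tcf15 by 1.51 at under 30 normalized counts in each library. Hey1, another Notch target, was called at 1.03, but it lay under the limit without APCs replicate 4 (0.96) or without FIPs replicate 1 (0.99) or 2 (0.94). Sox9, the factor of cartilage and of immature preadipocytes, was at 3106, 3327, 3591 and 2718 normalized counts in APCs and at 1185, 1434, 1376 and 1289 in FIPs (log2 difference 1.27 ± 0.09 SE, limma adjusted p = 2.58e-07). Ets1 averaged 425 ± 60.4 in APCs and 138 ± 20.4 in FIPs (difference 1.61). Gata4 (32.8 ± 7.81 against 4.98 ± 1.66) and Meox1 (25.9 ± 2.38 against 6.61 ± 1.76) were low in both groups and higher in APCs. Of the 20 tested dissociation and immediate early genes 0 were called by limma, with 0 also by edgeR and DESeq2 on recovered reads; at an unadjusted p under 0.05, whatever the size, 6 were higher in APCs and 7 in FIPs. Their counts were high in both groups: Fos was at 142162 to 158416 in APCs and 130309 to 138811 in FIPs.

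Receptor tyrosine kinases differed by family. Tek, which codes for the angiopoietin receptor TIE2 and is best known from endothelium (Entrez gene 21687, chromosome 4, 94739086 to 94874976), was at 742, 703, 666 and 766 normalized counts in APCs and at 7579, 7412, 8276 and 8042 in FIPs (log2 difference -3.44 ± 0.06 SE, limma adjusted p = 5.13e-12). The FIP libraries lay far above the APC libraries. The junctional endothelial genes Pecam1 (79.6 to 146 in APCs, 63.5 to 123 in FIPs) and Cdh5 (62.4 to 186 and 57.1 to 122) overlapped between the groups and were not called. Kdr, the VEGF receptor of endothelium, lay on the other side, at 207 ± 45.3 in APCs and 85.7 ± 28.8 in FIPs (difference 1.30).

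Of the receptors for fibroblast growth factors Fgfr2, Fgfr3, Fgfr4 and the truncated Fgfrl1 were higher in APCs. Fgfr4 was at 353, 337, 327 and 261 normalized counts in APCs and at 53.4, 44.4, 39.1 and 56.2 in FIPs (log2 difference 2.71 ± 0.14 SE, limma adjusted p = 2.28e-08). Fgfr3 differed by 2.71 and Fgfr2, the receptor for FGF7 and FGF10, by 1.15 (2656 ± 162 in APCs, 1201 ± 83.8 in FIPs). Fgfr4 and Fgfr2 showed no overlap between the groups, and Fgfr1 was not called (-0.32). Neurotrophin receptors were split: Ngfr, the low-affinity receptor, was at 1331, 1598, 1320.4 and 1458 normalized counts in APCs and at 209, 309.7, 239 and 206 in FIPs (log2 difference 2.58 ± 0.12 SE, limma adjusted p = 9.70e-09), and Ntrk2 (1.13) was higher in APCs as well, while Ntrk3 (-1.34) was higher in FIPs. Ddr2, a receptor for fibrillar collagen, averaged 10554 ± 473 in APCs and 23731 ± 1063 in FIPs (log2 difference -1.17 ± 0.06 SE, limma adjusted p = 1.88e-08), but was not called with equal totals (-0.92) or quantile normalization (-0.95). Axl, the receptor for GAS6, had a difference of -1.02, just past the limit, and was under it with quantile normalization (-0.82) and without FIPs replicate 3 (-0.98).

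Of 36 tested cytokine receptors 9 were higher in FIPs and 4 in APCs (median -0.11). The receptor chains for interleukins 4 and 13 were both among them. Il13ra1 (Entrez gene 16164, chromosome X, 36112108 to 36171262) was at 248, 246, 270.2 and 341 normalized counts in APCs and at 2306, 2034, 2369.7 and 2183 in FIPs (log2 difference -3.01 ± 0.10 SE, limma adjusted p = 5.70e-10). Il4ra, its partner in the type II receptor, was at 745, 533, 613 and 982 normalized counts in APCs and at 1794, 1464, 2004 and 1689 in FIPs (log2 difference -1.30 ± 0.16 SE, limma adjusted p = 3.61e-05). For both chains the groups were apart, with APCs replicate 4 the highest APC library. Il6ra (-1.41), Tnfrsf1b (-1.38) and Tnfrsf11b, a decoy receptor that binds RANKL (-1.78), were higher in FIPs, as were the Toll-like receptors Tlr2 (-1.66) and Tlr4 (-1.19). The shared chain Il6st was not called (-0.48). Prlr, the prolactin receptor, went the other way at 3115, 3693, 3419 and 3019 normalized counts in APCs and at 883, 1060.4, 860.2 and 998 in FIPs (log2 difference 1.80 ± 0.08 SE, limma adjusted p = 9.13e-09). Lepr, the leptin receptor, was low in both groups (18.6 to 38.0 and 2.86 to 8.16; difference 2.11).

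Of 16 TGF-beta family receptors 1 was called (6.25%, beside 9.9% of all genes), Tgfbr2, the ligand-binding receptor for TGF-beta. It was at 5198, 5621, 5858 and 5521 normalized counts in APCs and at 15153, 14481, 16983 and 14874 in FIPs (log2 difference -1.47 ± 0.07 SE, limma adjusted p = 6.05e-09), with every FIP library above every APC library. Of the Notch receptors, Notch1 and Notch3 were higher in APCs and Notch2 was not called (-0.62). Notch1 was at 4195, 4747, 4053 and 2673 normalized counts in APCs and at 764, 995, 824 and 835 in FIPs (log2 difference 2.17 ± 0.15 SE, limma adjusted p = 2.26e-07), with replicate 4 the lowest APC library but still above the FIPs. Notch3, the Notch receptor of mural cells and a member of the pericyte list, differed by 1.31. That list moved the same way as Notch1, Notch3 and Heyl, and the part of mural cells in these values was not tested. Among the Wnt receptors Fzd6 was higher in FIPs (65.0 ± 4.98 against 18.2 ± 4.24) and Lgr5, a receptor for R-spondins, was higher in APCs (77.0 ± 5.61 against 34.6 ± 14.8), a call that was lost without FIPs replicate 3.

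The G protein-coupled receptors were called in 22 of 46 tested genes, 14 higher in APCs and 8 in FIPs (median 0.25). Those higher in APCs included receptors by which fat cells sense metabolites and hormones. The 6 tested mature adipocyte markers, Adrb3 among them, moved the same way (summed level 2026 to 2571 in APCs, 137 to 175 in FIPs), and the part of such cells was not tested. Hcar1, the lactate receptor that restrains lipolysis, was at 251, 235, 229 and 199 normalized counts in APCs and at 14.8, 22.2, 21.96 and 19.95 in FIPs (log2 difference 3.48 ± 0.16 SE, limma adjusted p = 6.71e-09). Ptger3, a receptor for prostaglandin E2 that also restrains lipolysis, was at 408, 426, 492 and 391 normalized counts in APCs and at 81.1, 66.6, 76.4 and 71.6 in FIPs (log2 difference 2.52 ± 0.10 SE, limma adjusted p = 3.25e-09). Tshr, the thyrotropin receptor, was at 138, 91.6, 145 and 123 normalized counts in APCs and at 10.9, 12.0, 9.55 and 11.8 in FIPs (log2 difference 3.36 ± 0.19 SE, limma adjusted p = 4.45e-08). In these 3 genes the APC libraries lay far above the FIP libraries. Hcar2 (4.17), a receptor for ketone bodies, the cannabinoid receptor Cnr1 (3.14), the fatty acid receptor Ffar4 (3.78) and the beta-adrenergic receptor Adrb3 (1.59) had lower counts and went the same way. S1pr3, a receptor for sphingosine 1-phosphate, was at 1517 ± 91.7 in APCs against 375 ± 32.1 in FIPs (difference 2.01).

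FIPs were higher in the atypical chemokine receptors, which bind chemokines and take them up without classical signalling. Ackr3, which binds CXCL12, was at 802, 788, 991 and 970.1 normalized counts in APCs and at 5118, 4671, 6509 and 5672 in FIPs (log2 difference -2.62 ± 0.11 SE, limma adjusted p = 3.01e-09). Ackr4 averaged 273 ± 23.96 in FIPs and 79.2 ± 31.3 in APCs (-1.85), while Ackr1 differed by -3.37 and Ackr2 by -5.18. The ligand Cxcl12 itself was not called (9337 ± 1198 in APCs, 5720.4 ± 502 in FIPs; difference 0.70). Adora2b, an adenosine receptor, was higher in FIPs as well (-2.83).

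Integrins and guidance receptors also changed by member. Itga8, the partner of integrin beta 1 that binds nephronectin, was at 1279.6, 1433, 1478 and 1361 normalized counts in APCs and at 143, 154, 169 and 161 in FIPs (log2 difference 3.14 ± 0.08 SE, limma adjusted p = 4.85e-11). Its ligand Npnt was higher in APCs too, at 477 ± 86.5 against 140.3 ± 19.3 (1.75). Itga8 is also in the contractile smooth muscle list, of which 5 of 15 tested genes were higher in APCs. The part of such cells in its values was not tested. The collagen receptor chains went to FIPs: Itga11 was at 1244, 1158, 1160.2 and 1112 normalized counts in APCs and at 3338, 3519.6, 3562 and 3354 in FIPs (log2 difference -1.56 ± 0.06 SE, limma adjusted p = 1.00e-09) and Itga2 differed by -3.30. Itga9 (-1.29) and Itgb5 (-1.23) were higher in FIPs as well, and Itgb1, the common beta chain, was not called (-0.41). Unc5c, a repulsive netrin receptor, was at 1627, 1851, 1598 and 1516 normalized counts in APCs and at 342, 303, 312 and 356 in FIPs (log2 difference 2.32 ± 0.08 SE, limma adjusted p = 7.13e-10), with no FIP library near the APC range. Netrins lay on the other side: Ntn4 averaged 407 ± 51.2 in FIPs and 44.2 ± 6.20 in APCs (log2 difference -3.18 ± 0.13 SE, limma adjusted p = 2.57e-09), and Ntn1 differed by -1.24.

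**Figure D3:**
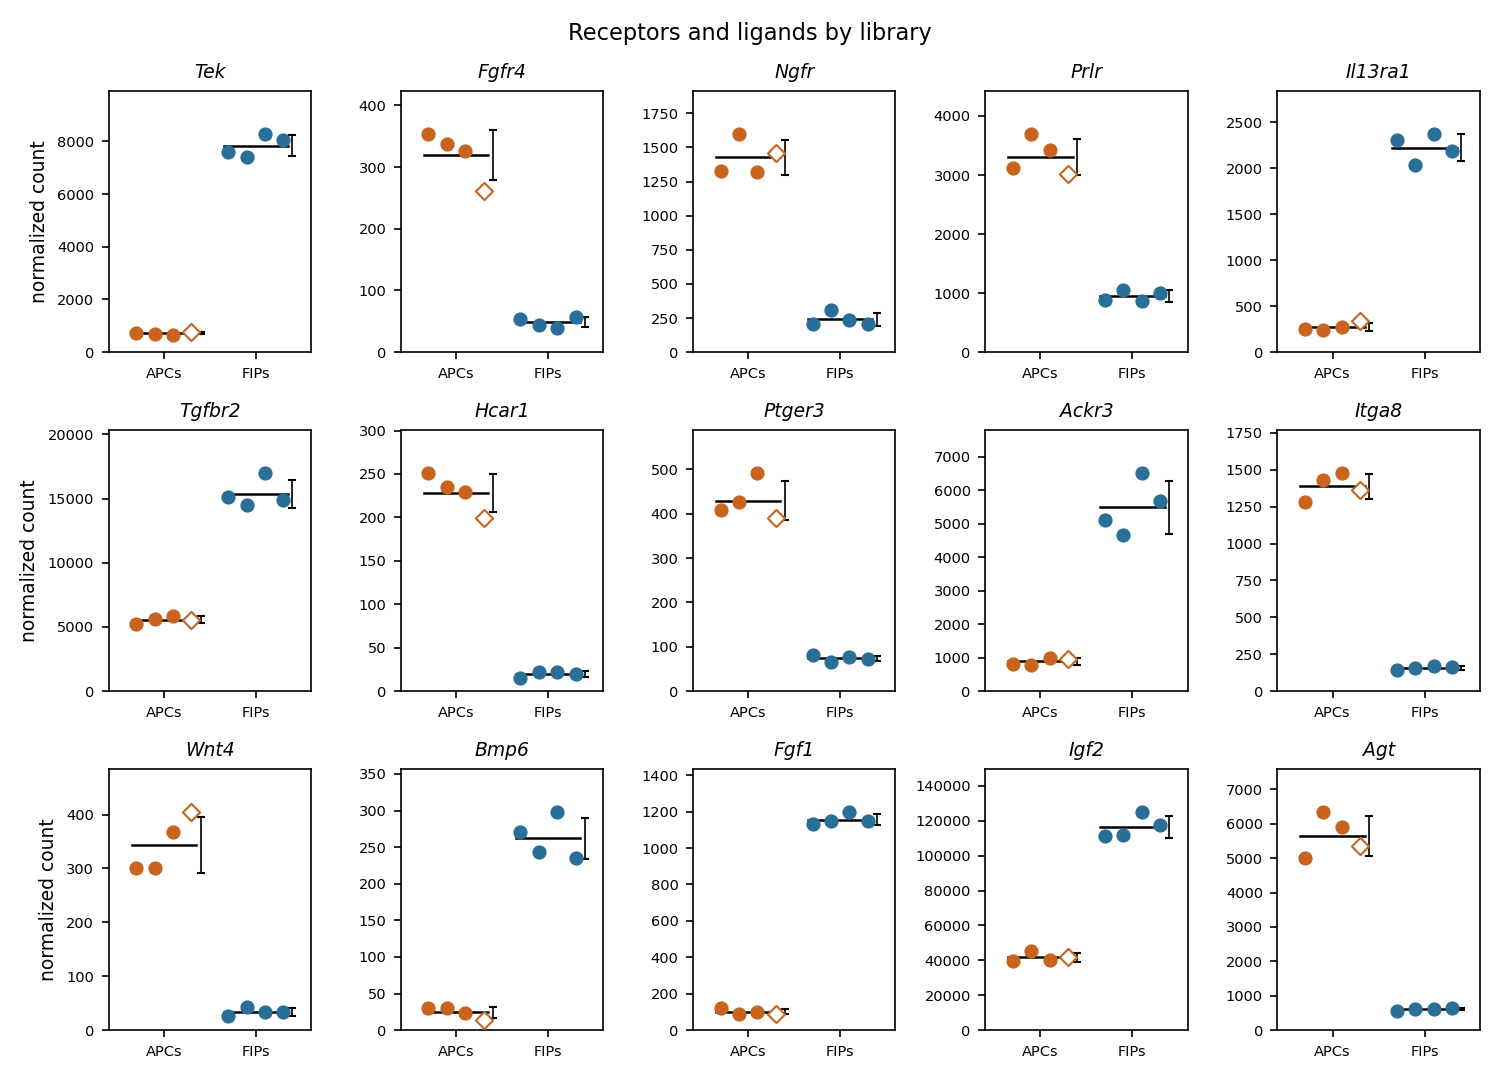
Normalized counts (y axis, from 0, 1 scale per gene) of 15 receptors and ligands in each library; circles are libraries, the open diamond is APCs replicate 4, horizontal lines are means and the bars beside them ± 1 SD over 4 libraries. In each of the 15 panels the APC and FIP libraries do not overlap.

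Secreted signals were divided between the populations, often within 1 family. Of 20 Wnt ligands and modulators 4 were higher in APCs and 8 in FIPs (median -0.53). Wnt4, a ligand that can act without beta-catenin, was at 301, 301, 367 and 405 normalized counts in APCs and at 25.7, 42.5, 34.4 and 33.6 in FIPs (log2 difference 3.31 ± 0.16 SE, limma adjusted p = 1.17e-08). Wnt2b was at 401, 404, 335 and 287 normalized counts in APCs and at 1801, 1880.4, 1724 and 1843 in FIPs (log2 difference -2.35 ± 0.10 SE, limma adjusted p = 4.52e-09). Wnt10b, the canonical ligand best known for holding back fat formation, was at 3.46 to 15.2 in APCs and 551 to 662 in FIPs. Wnt2 (-3.69), Wnt11 (-1.39) and, at under 25 normalized counts, Wnt1 (-4.17) were higher in FIPs as well. The R-spondins, which amplify Wnt signals, parted: Rspo3 averaged 1883 ± 163 in APCs and 689.6 ± 41.7 in FIPs (1.45), and Rspo2 7.80 ± 3.60 and 77.9 ± 15.1 (-3.24). Of the secreted Wnt inhibitors, Sfrp4 was at 85.4, 54.4, 71.5 and 105 normalized counts in APCs and at 982, 753, 1004 and 1128 in FIPs (log2 difference -3.62 ± 0.18 SE, limma adjusted p = 1.57e-08), and Sfrp2 differed by -2.62. Sfrp1, with 18852 ± 1882 in APCs and 12307 ± 1043 in FIPs, was under the limit at 0.61.

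The 4 BMP ligands that were called, Bmp2, Bmp3, Bmp6 and Bmp7, were higher in FIPs. Bmp6 was at 30.4, 30.2, 22.9 and 13.8 normalized counts in APCs and at 271, 243, 298 and 236 in FIPs (log2 difference -3.43 ± 0.22 SE, limma adjusted p = 1.24e-07). Bmp3, which opposes other BMPs, was at 4.23, 8.06, 2.14 and 3.46 normalized counts in APCs and at 113, 113, 96.4 and 108 in FIPs (log2 difference -4.41 ± 0.30 SE, limma adjusted p = 2.05e-07), and Bmp2 differed by -1.84 (172 ± 31.8 against 612 ± 57.8). The FIP libraries lay above the APC libraries in these. Bmp7, with a difference of -5.70, was at 6.92 in APCs replicate 4 and 19.1 to 24.5 in the other APC libraries. Bmp4, the BMP that commits mesenchymal cells to fat, was low and not called (0.64). Fstl1, a secreted glycoprotein that binds BMP4, was at 48087, 48431, 52741 and 59157 normalized counts in APCs and at 168039, 143076, 177107 and 164523 in FIPs (log2 difference -1.65 ± 0.10 SE, limma adjusted p = 7.04e-08). Inhbb, the activin B subunit, was higher in APCs (657 ± 25.7 against 302 ± 11.8, difference 1.12).

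Growth factors for receptor tyrosine kinases were called in 14 of 40 tested genes, 8 higher in APCs and 6 in FIPs (median 0.31). Fgf1, which can bind each of the FGF receptors, was at 121, 90.6, 101 and 89.9 normalized counts in APCs and at 1132, 1148, 1197 and 1148 in FIPs (log2 difference -3.52 ± 0.10 SE, limma adjusted p = 1.16e-10). Fgf16 differed by -4.37 and Fgf18 by -1.38. These 3 ligands were higher in FIPs while Fgfr2, Fgfr3 and Fgfr4 were higher in APCs. Fgf10, a paracrine factor for preadipocytes, was not called (5396 ± 524 in APCs, 4221 ± 219 in FIPs; difference 0.35). The insulin-like growth factors parted: Igf2, an imprinted fetal growth factor, was at 39815, 45505, 40281 and 41971 normalized counts in APCs and at 111099, 112068, 124968 and 117812 in FIPs (log2 difference -1.48 ± 0.08 SE, limma adjusted p = 2.54e-08), and Igf1 was at 25815, 29287, 28629 and 34029 normalized counts in APCs and at 14019.7, 15234, 12777 and 14216 in FIPs (log2 difference 1.06 ± 0.09 SE, limma adjusted p = 1.13e-06). Igf1 lay just past the limit, and without APCs replicate 4 it lay just short of it (0.99). Hgf (1.80) and the AXL ligand Gas6 (1.66) were higher in APCs, Gas6 with 2345 in replicate 4 and 1236 to 1368 in the others. Vegfd (-1.65) and Efnb2 (-1.96) were higher in FIPs, and Vegfa was not called (0.04). The angiopoietins, the ligands of TIE2, were measured as well: Angpt1 averaged 433 ± 67.8 in APCs and 328 ± 56.5 in FIPs and was not called (0.40), while Angpt2 (1.49) and Angpt4 (1.63) were higher in APCs.

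Vasoactive peptides showed the same division. Agt, the precursor of angiotensin made by preadipocytes (Entrez gene 11606, chromosome 8, 124556587 to 124569706), was at 5016, 6338, 5895 and 5354 normalized counts in APCs and at 566, 613, 614 and 640.3 in FIPs (log2 difference 3.21 ± 0.08 SE, limma adjusted p = 4.09e-11), while its receptor Agtr1a averaged 416 ± 19.7 in APCs and 1085 ± 91.3 in FIPs (log2 difference -1.38 ± 0.07 SE, limma adjusted p = 2.69e-08). Enpep, the aminopeptidase that trims angiotensin II, was at 6744 ± 378 and 2359 ± 146 (1.52). So ligand precursor and peptidase were higher in APCs and the receptor was higher in FIPs. Of the endothelins, Edn1 was higher in FIPs (-5.65; 0 to 6.92 in APCs, 123 to 217 in FIPs) and Edn3 in APCs (2.27; 55.3 to 77.9 and 9.25 to 18.1). Apln, a vasodilator peptide, averaged 1844 ± 68.1 in APCs and 621 ± 45.5 in FIPs (1.57), and Adm, adrenomedullin, 624 ± 158 and 2017 ± 379.6 (-1.71).

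Of 32 tested cytokines and peptide hormones 8 were higher in APCs and 6 in FIPs (median 0.13). Il6 was at 1440.2, 1512, 2348 and 2511 normalized counts in APCs and at 4618, 4208, 4265 and 4991 in FIPs (log2 difference -1.25 ± 0.16 SE, limma adjusted p = 5.28e-05), and Lif, of the same family, was at 264 ± 26.2 in APCs and 565 ± 43.1 in FIPs (-1.10), a call lost with equal totals (-0.85) and by edgeR. Metrnl, a secreted factor of fat and muscle, averaged 969.9 ± 142 and 3306 ± 364 (log2 difference -1.77 ± 0.11 SE, limma adjusted p = 6.65e-08). All 3 were higher in FIPs by limma. Among 12 tested chemokines 1 was called (8.33%, beside 9.9% of all genes). It was Cx3cl1, higher in APCs at 1.47, with 58.8 in replicate 4 and 14.1 to 20.3 in the others. Of the class 3 semaphorins, secreted guidance cues, Sema3b to Sema3e were higher in FIPs: Sema3c was at 3379.9, 4196, 3514 and 3991 normalized counts in APCs and at 19350.1, 17316, 18952 and 17991 in FIPs (log2 difference -2.29 ± 0.08 SE, limma adjusted p = 5.40e-10), with Sema3d (-1.41), Sema3b (-1.83) and Sema3e (-5.38) on the same side. Sema3f was called higher in APCs at 1.03, a call that was lost in 9 of 19 alternative settings, among them those without APCs replicate 2 or 3 or FIPs replicate 1 or 3, and Sema3a was not called (-0.25).

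The main fibrillar collagens were under the 2-fold limit, and the matrix genes that were called were of other classes. Col3a1 averaged 805755 ± 67563 in APCs and 1300347 ± 81704 in FIPs (difference -0.69), and the difference of Col1a1 was -0.54. Of 37 collagen chains 7 were higher in APCs and 2 in FIPs (median -0.02). Col15a1, a collagen of basement membrane zones, was at 112855, 117782, 119318 and 101349 normalized counts in APCs and at 26915, 24743, 29045 and 26722 in FIPs (log2 difference 2.07 ± 0.08 SE, limma adjusted p = 2.13e-09), with every APC library above every FIP library. Col14a1, which binds the surface of collagen fibrils, went the other way at 21754, 19846, 22033 and 21634 normalized counts in APCs and at 80283, 72156, 84613 and 81320.2 in FIPs (log2 difference -1.90 ± 0.07 SE, limma adjusted p = 1.89e-09). The ranges were far apart in both. Col8a2 (1.68), Col9a2 (2.55) and Col23a1 (1.28) were higher in APCs. Of the basement membrane genes, Smoc1, a calcium-binding glycoprotein that can block BMP signals, was at 858, 897, 862 and 852 normalized counts in APCs and at 52.4, 61.9, 50.6 and 50.8 in FIPs (log2 difference 3.99 ± 0.09 SE, limma adjusted p = 3.01e-11). Lama1, a laminin chain, was at 896, 877, 880.0 and 501 normalized counts in APCs and at 72.2, 64.7, 68.7 and 65.3 in FIPs (log2 difference 3.48 ± 0.17 SE, limma adjusted p = 1.03e-08), with replicate 4 the lowest APC library. Nid1, nidogen 1, which links laminin to collagen IV, was higher in FIPs (75498 ± 2151 in APCs, 161513 ± 9099.6 in FIPs; -1.10, but -0.66 and under the limit with quantile normalization), as was Fras1 (-2.47).

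Fibronectin and microfibril genes were higher in FIPs. Fn1, encoding fibronectin, was at 146266, 145014, 133522 and 96248 normalized counts in APCs and at 543196, 542224, 591184 and 564244 in FIPs (log2 difference -2.12 ± 0.14 SE, limma adjusted p = 1.60e-07). Emilin2, an elastin interface protein, was at 2894, 2789, 2769 and 3116 normalized counts in APCs and at 16390.1, 15093, 18194 and 15331 in FIPs (log2 difference -2.49 ± 0.07 SE, limma adjusted p = 1.43e-10). Mfap5 (-2.21), Fbn1, the microfibril core protein (-1.98), and Adamtsl4, which binds fibrillin (-2.25), lay on the same side. Of 25 elastic fibre genes 6 were higher in FIPs and 3 in APCs (median -0.44). Eln, elastin itself, overlapped between the groups (-0.20), and Emilin3 was higher in APCs (3.03). Among matricellular proteins, Ccn3 was at 109, 156, 114 and 145 normalized counts in APCs and at 1454, 1329, 1874 and 1454 in FIPs (log2 difference -3.54 ± 0.13 SE, limma adjusted p = 1.61e-09), and its relative Ccn4, a Wnt target, went the other way at 509, 661, 555 and 744 normalized counts in APCs and at 143, 134, 93.6 and 106 in FIPs (log2 difference 2.37 ± 0.15 SE, limma adjusted p = 1.27e-07). Postn, periostin, averaged 112346 ± 8908 in APCs and 228324 ± 18163 in FIPs; its difference of -1.02 went to -0.39 with quantile normalization and was under the limit without APCs replicate 1 (-0.98) or FIPs replicate 3 (-0.99). Tnc, tenascin C, was higher in APCs (2.40), with 533 in replicate 4 and 142 to 188 in the others.

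Of the hyaluronan synthases Has1 and Has2 were higher in FIPs, and Has3 was not called (0.87), though it was called higher in APCs without APCs replicate 2 (1.01) or 4 (1.07) or without FIPs replicate 2. Has2 was at 706, 904, 851 and 927 normalized counts in APCs and at 3294, 3285, 3429 and 3162 in FIPs (log2 difference -1.97 ± 0.08 SE, limma adjusted p = 3.25e-09), and Has1 averaged 1227 ± 233 in APCs and 4186 ± 556 in FIPs (-1.78). Cemip, which breaks hyaluronan down, was called higher in APCs (2.30), where replicate 4 stood at 323 and the others at 15.1 to 54.1. Without replicate 4 its difference was 1.37, and it was not called without APCs replicate 1 or without FIPs replicate 1, 3 or 4 (2.04 to 2.45). Glypicans parted, with Gpc6 higher in FIPs (-1.18) and Gpc1 higher in APCs (1.49), and the proteoglycan Fmod, fibromodulin, was higher in APCs (465 ± 62.7 against 84.0 ± 18.8; 2.47).

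Proteases and their inhibitors were called in 16 of 53 genes, 7 higher in APCs and 9 in FIPs (median -0.21). Adamts16, a protease that can act on fibronectin (Entrez gene 271127, chromosome 13, 70727798 to 70841845), was at 422, 382, 366 and 346 normalized counts in APCs and at 7307, 7256, 7988 and 6968 in FIPs (log2 difference -4.28 ± 0.07 SE, limma adjusted p = 2.46e-12). Adamts17, which is tied to fibrillin microfibrils, was the reverse at 3387, 3272, 3509 and 3054 normalized counts in APCs and at 740.0, 736, 732 and 777 in FIPs (log2 difference 2.14 ± 0.06 SE, limma adjusted p = 1.16e-10). Mmp28, epilysin, was at 216, 203, 183 and 209 normalized counts in APCs and at 4.95, 5.55, 12.4 and 9.07 in FIPs (log2 difference 4.58 ± 0.25 SE, limma adjusted p = 2.84e-08). None of these 3 overlapped between the groups. Urokinase and its receptor were higher in FIPs, with Plau at 349.9, 283, 375 and 569 normalized counts in APCs and at 2797, 2576, 3386 and 2889 in FIPs (log2 difference -2.92 ± 0.17 SE, limma adjusted p = 5.54e-08) and its receptor Plaur at 149 ± 10.8 in APCs and 499 ± 73.0 in FIPs (-1.73). Timp3, a matrix-bound inhibitor of metalloproteinases, was at 1173, 1227, 1385 and 1691 normalized counts in APCs and at 6978, 7009, 7949 and 6858 in FIPs (log2 difference -2.41 ± 0.10 SE, limma adjusted p = 4.13e-09).

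**Figure D4:**
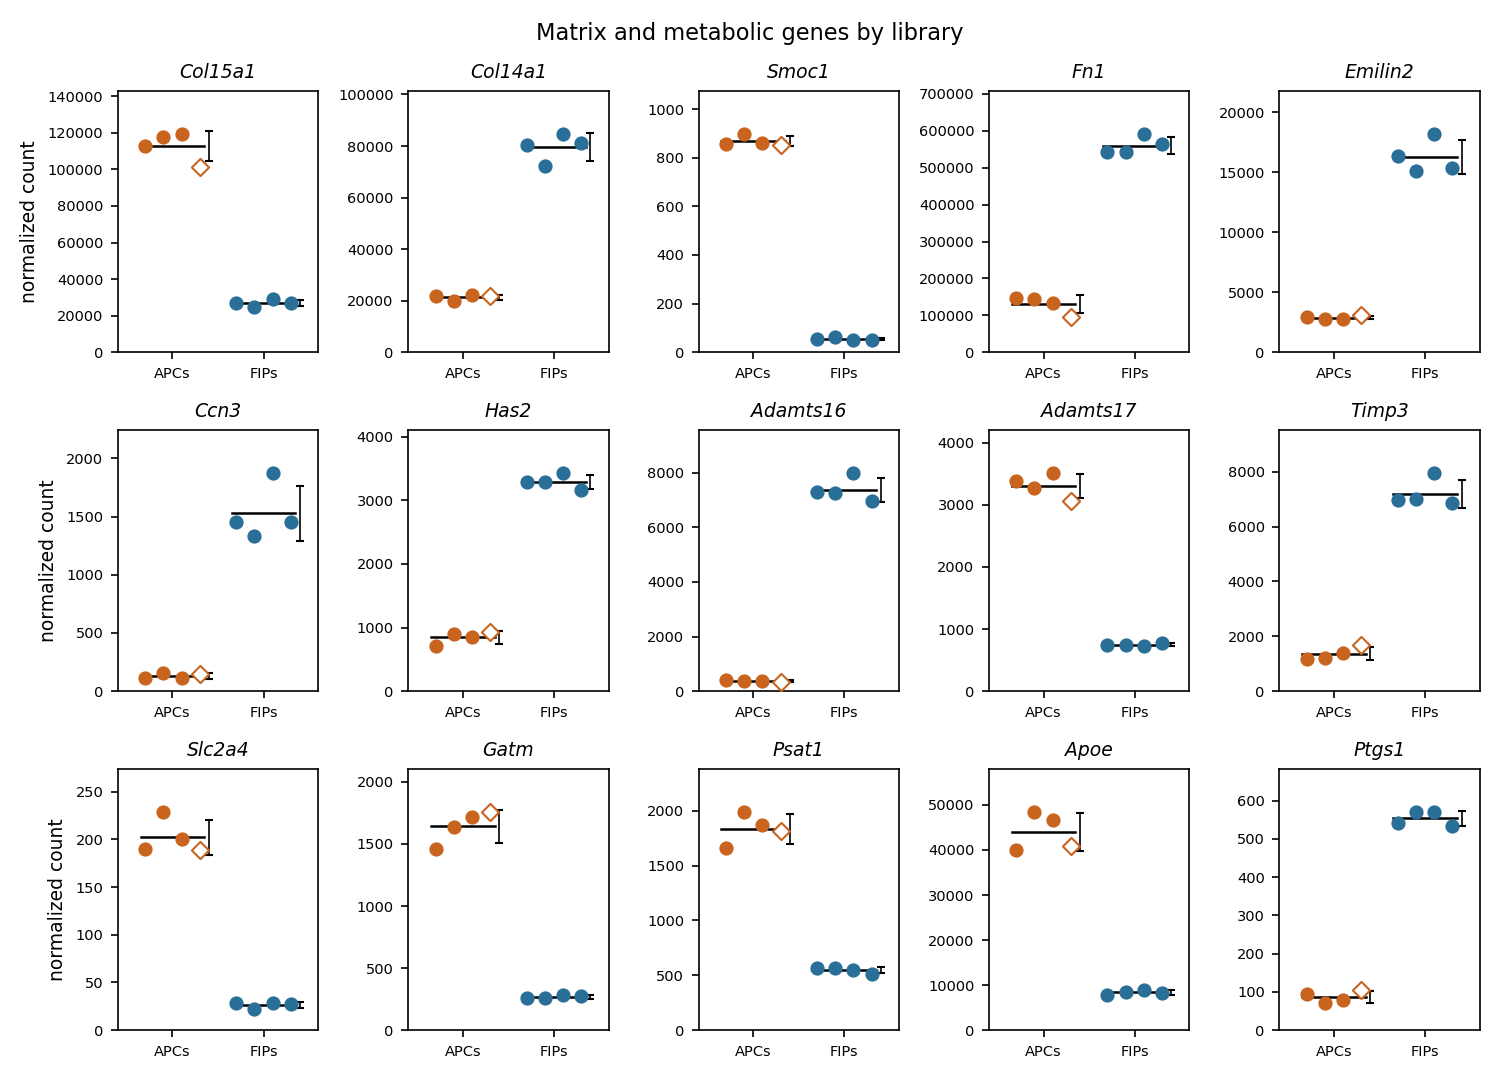
Normalized counts (y axis, from 0, 1 scale per gene) of 10 matrix and 5 metabolic genes in each library; circles are libraries, the open diamond is APCs replicate 4, lines are means and the bars beside them ± 1 SD over 4 libraries. Col15a1, Smoc1, Adamts17, Slc2a4, Gatm, Psat1 and Apoe lie higher in APCs and the other 8 genes lie higher in FIPs, with no overlap.

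In metabolism most of the called genes were higher in APCs, and few of them belonged to fatty acid oxidation. In fatty acid uptake and triglyceride synthesis 14 of 40 genes were higher in APCs and 2 in FIPs (median 0.52). Plin1 (5.35), Lipe (1.90) and Cidec (2.65) are in this list and in the mature adipocyte list, whose mean sum was 2294 in APCs and 155 in FIPs, and the part of mature fat cells was not tested. Gpat3 (109 ± 8.91 in APCs, 11.7 ± 4.25 in FIPs; 3.16) and Gpd1 (305 ± 48.1 and 63.7 ± 8.69; 2.24), which make and acylate the glycerol backbone, were among them. Agpat4, an acyltransferase of the next step, was higher in FIPs at 306, 326, 331 and 337 normalized counts in APCs and at 895, 822, 983 and 892 in FIPs (log2 difference -1.46 ± 0.07 SE, limma adjusted p = 1.32e-08). Cd36, the fatty acid translocase, was at 1548 ± 336 in APCs and 233 ± 30.9 in FIPs (2.71). Lpl, which frees fatty acids from lipoproteins, was at 43636 to 70435 in APCs and 22932 to 36089 in FIPs; it was not called (0.93), but was called higher in APCs with equal totals (1.17) or quantile normalization (1.24) and without APCs replicate 2 (1.03) or FIPs replicate 4 (1.04). Of 31 genes of fatty acid oxidation 1 was called (3.23%, beside 9.9% of all genes). It was the coactivator Ppargc1b (75.4 ± 25.4 against 23.1 ± 1.35, difference 1.59), and Cpt1a, the entry step, was at -0.27. De novo synthesis genes differed little, with Fasn at 0.30 and Scd2 at -0.03, while Thrsp, an activator of that pathway, was at 42.3 to 57.5 in APCs and 2.77 to 3.96 in FIPs (3.42).

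Glucose handling differed in a few steps. Slc2a4, the insulin-dependent glucose transporter GLUT4, was at 190.2, 229, 201 and 188 normalized counts in APCs and at 28.7, 22.2, 28.6 and 27.2 in FIPs (log2 difference 2.88 ± 0.14 SE, limma adjusted p = 9.47e-09). Pcx, pyruvate carboxylase, which supplies oxaloacetate for lipid synthesis, was at 729, 760.3, 647 and 616 normalized counts in APCs and at 204, 179, 210.0 and 151 in FIPs (log2 difference 1.89 ± 0.11 SE, limma adjusted p = 6.64e-08). The APC libraries lay above the FIP libraries in both. Ldhb (1.54) and the liver-type phosphofructokinase Pfkl (1.28) were higher in APCs, Pfkfb4 was higher in FIPs (-1.22), and Ldha was under the limit (0.75). Of 31 genes of glycolysis and lactate 4 were higher in APCs and 1 in FIPs (16.1% called, median 0.23). Of 27 genes of the tricarboxylic acid cycle and the pentose phosphate pathway Pcx was the 1 called (3.70%, median 0.25). Of all genes 9.9% were called.

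Several genes of serine, glycine and creatine synthesis were higher in APCs. In the list of amino acid, one-carbon and polyamine metabolism 6 of 39 genes were higher in APCs (median 0.26) and, by limma, 0 in FIPs, by edgeR and DESeq2 on recovered reads also 0, and at an unadjusted p under 0.05, whatever the size, 9 were higher in FIPs. Gatm makes the creatine precursor guanidinoacetate and was at 1458, 1638, 1717 and 1757 normalized counts in APCs and at 256, 255, 282 and 276 in FIPs (log2 difference 2.61 ± 0.07 SE, limma adjusted p = 1.56e-10). Phgdh, the first enzyme of serine synthesis, was at 859, 838, 871 and 819.6 normalized counts in APCs and at 313, 328, 346 and 251 in FIPs (log2 difference 1.46 ± 0.09 SE, limma adjusted p = 1.28e-07). Psat1, the next enzyme, was at 1662, 1987, 1873 and 1817 normalized counts in APCs and at 571, 570.4, 547 and 516 in FIPs (log2 difference 1.73 ± 0.07 SE, limma adjusted p = 2.19e-09). The groups were apart in all 3. Shmt1, which turns serine into glycine, differed by 1.61, and Cbs and Cth, which pass homocysteine to cysteine, by 2.57 and 1.22.

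Apoe, the lipoprotein that carries cholesterol, was at 39993, 48412, 46662 and 40856 normalized counts in APCs and at 7762, 8516, 8927 and 8358 in FIPs (log2 difference 2.39 ± 0.08 SE, limma adjusted p = 4.85e-10), and the HDL receptor Scarb1 differed by 1.42. The cholesterol synthesis gene Hmgcs1 was not called (0.43). Steroid and retinoid enzymes were called in 11 of 29 genes, 8 higher in APCs and 3 in FIPs (median 0.23). Hsd11b1, which regenerates active glucocorticoid, averaged 101 ± 11.8 in APCs and 22.02 ± 6.25 in FIPs (2.18). The opposing enzyme Hsd11b2 had higher counts, at 2932 ± 326 in APCs and 1479 ± 59.6 in FIPs. It was just under the limit (0.98), and was called higher in APCs without APCs replicate 4 (1.02). Dhrs3, which reduces retinal to retinol (1.54), and Cyp26b1, which degrades retinoic acid (1.70), were higher in APCs, while Aldh1a3, which makes retinoic acid, was at 751, 848, 909 and 1198 normalized counts in APCs and at 3003, 2818, 3827 and 3587 in FIPs (log2 difference -1.85 ± 0.14 SE, limma adjusted p = 4.08e-07). Akr1c14 averaged 42.3 ± 9.84 and 682 ± 29.8 (-4.01), and may share reads with Akr1c18 and other close paralogs.

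Of 13 prostaglandin and other eicosanoid genes 5 were higher in FIPs and 2 in APCs (median -0.65). Ptgs1, the constitutive cyclooxygenase, was at 93.8, 70.5, 78.6 and 105 normalized counts in APCs and at 542, 569, 570.0 and 533 in FIPs (log2 difference -2.67 ± 0.12 SE, limma adjusted p = 6.28e-09). Ptgs2, the inducible cyclooxygenase, was at 483, 509.5, 731 and 932 normalized counts in APCs and at 1862, 1990.5, 1876 and 2294 in FIPs (log2 difference -1.64 ± 0.18 SE, limma adjusted p = 1.10e-05). Pla2g4a, the phospholipase that frees arachidonic acid, was at 225, 231, 237 and 374 normalized counts in APCs and at 1133, 1042, 1129 and 1102 in FIPs (log2 difference -2.08 ± 0.14 SE, limma adjusted p = 1.78e-07). FIPs were thus higher at the release step and at both cyclooxygenases, and APCs replicate 4 was the highest APC library in each. Of the synthases after them, Ptges lay on the APC side, at 2405 ± 139 in APCs and 1682 ± 91.5 in FIPs (0.52). Ptgis lay on the FIP side (-0.70). Neither was called, and neither overlapped between the groups. Hpgd, which inactivates prostaglandins, was also called higher in FIPs (-1.09), but not with equal totals (-0.84), with quantile normalization or by edgeR or DESeq2 (-0.98 in each). Ephx2, a soluble epoxide hydrolase (1.99), and Alox15 (2.55) were higher in APCs. Ptger3, the prostaglandin E2 receptor described above, was higher in APCs.

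Of 35 tested genes of DNA replication and mitosis 14 were higher in APCs and, by limma, 0 in FIPs, by edgeR and DESeq2 on recovered reads also 0, and at an unadjusted p under 0.05, whatever the size, 0 were higher in FIPs. The median difference of the list was 0.94, and with the libraries scaled to equal totals 26 were called higher in APCs. Cdk1, the mitotic kinase, was at 714, 895, 804 and 1039 normalized counts in APCs and at 434, 358, 371 and 378 in FIPs (log2 difference 1.15 ± 0.11 SE, limma adjusted p = 3.97e-06). Top2a, which untangles DNA, was at 3634, 4673, 3737 and 3393 normalized counts in APCs and at 1936, 1717, 1739 and 1536 in FIPs (log2 difference 1.15 ± 0.10 SE, limma adjusted p = 1.60e-06), and Ccnb1, cyclin B1, averaged 393 ± 47.6 in APCs and 184 ± 21.5 in FIPs (1.09). The groups did not overlap. Mki67 was under the limit (0.94), with replicate 4 the lowest APC library, and was called without it (1.13). Regulators of the G1 phase parted: Cdk6 was at 169, 144, 149 and 129.7 normalized counts in APCs and at 18.8, 26.8, 15.3 and 20.9 in FIPs (log2 difference 2.82 ± 0.18 SE, limma adjusted p = 1.26e-07), and Cdkn1c, the imprinted inhibitor p57, was at 3906, 4529.5, 3710.2 and 3801 normalized counts in APCs and at 11721, 11560.0, 11635 and 10800.0 in FIPs (log2 difference -1.52 ± 0.07 SE, limma adjusted p = 6.71e-09). The inhibitors Cdkn2b (2.11) and Cdkn2c (1.16) were higher in APCs and cyclin D1, Ccnd1, was not called (0.14).

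The promoters of mitotic genes carry shared elements, the CCAAT box and the cell cycle homology region (CHR), and those of Cdk1, Top2a and Ccnb1 are printed to show where those letters occur. The Ccnb1 window holds CCAAT 2 times and the CHR letters TTTGAA in neither orientation. The sequences are the 250 bases before the gene's start in RefSeq on GRCm38.p6, 5′ to 3′ on the gene's strand, with CCAAT and TTTGAA in either orientation in capitals.
Cdk1 (chr10:69352913-69353162, minus strand): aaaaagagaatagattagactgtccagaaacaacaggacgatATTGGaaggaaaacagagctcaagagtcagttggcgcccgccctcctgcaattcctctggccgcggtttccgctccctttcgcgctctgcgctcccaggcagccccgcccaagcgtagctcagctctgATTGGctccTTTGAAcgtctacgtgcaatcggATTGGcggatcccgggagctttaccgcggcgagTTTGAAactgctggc
Top2a (chr11:99024190-99024439, minus strand): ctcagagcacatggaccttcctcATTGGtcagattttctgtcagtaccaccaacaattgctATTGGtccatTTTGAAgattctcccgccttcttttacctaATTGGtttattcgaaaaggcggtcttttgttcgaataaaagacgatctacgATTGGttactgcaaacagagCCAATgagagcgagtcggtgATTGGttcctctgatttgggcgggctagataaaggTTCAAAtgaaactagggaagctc
Ccnb1 (chr13:100786487-100786736, minus strand): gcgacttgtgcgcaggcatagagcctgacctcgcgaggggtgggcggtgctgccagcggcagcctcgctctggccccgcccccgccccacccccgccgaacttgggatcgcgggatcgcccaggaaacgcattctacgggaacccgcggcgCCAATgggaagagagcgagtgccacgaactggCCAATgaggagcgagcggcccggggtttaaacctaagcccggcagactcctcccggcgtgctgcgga
Of 10576 tested genes with such a window, 40.5% held CCAAT and 12.5% TTTGAA on either strand. Shares here count genes, and a gene with several annotated starts was counted if any of its windows held the letters. In the replication and mitosis list 24 of 29 genes with a window (82.8%) held CCAAT and 9 of 29 (31.0%) TTTGAA. These shares describe the list, whose genes are known for these elements. Over the called genes with a window the shares were near those of all genes. CCAAT was in 41.0% of 532 genes higher in APCs and 36.1% of 452 higher in FIPs, and TTTGAA in 12.6% and 14.6%.

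Among genes with a window, the letters TGANTCA, bound by AP-1 and related bZIP factors, were in 45 of 452 genes higher in FIPs (9.96%). They were in 33 of 532 genes higher in APCs (6.20%) and in 5.40% of all 10576. Creb5, from the second of its 2 annotated starts, and Plaur are shown as FIP genes that hold them, with the match in capitals. The window of the first Creb5 start does not hold these letters.
Creb5 (chr6:53573124-53573373, plus strand): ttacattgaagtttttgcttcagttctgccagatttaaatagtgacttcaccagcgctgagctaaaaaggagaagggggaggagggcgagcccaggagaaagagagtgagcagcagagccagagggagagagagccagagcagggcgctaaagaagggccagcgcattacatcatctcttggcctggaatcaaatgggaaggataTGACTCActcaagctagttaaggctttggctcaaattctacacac
Plaur (chr7:24462233-24462482, plus strand): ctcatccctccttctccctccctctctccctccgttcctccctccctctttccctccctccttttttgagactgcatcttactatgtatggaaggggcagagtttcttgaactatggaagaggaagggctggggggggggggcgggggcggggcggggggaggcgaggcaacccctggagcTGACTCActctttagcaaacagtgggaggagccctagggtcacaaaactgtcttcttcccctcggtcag
Other letters searched on both strands were GGAATG for TEAD factors (15.2% of genes higher in APCs, 17.7% of those higher in FIPs, 12.9% of all), TGGGAA for the Notch partner CSL (27.4%, 24.3% and 24.2%), CTTTGAT for TCF and LEF factors (3.57%, 2.88% and 2.74%), TTGCNNCAA for C/EBP factors (1.50%, 1.33% and 1.48%) and the palindrome of EBF factors (2.07%, 2.65% and 1.13%). The direct repeat (DR1) of PPARG and other nuclear receptors was in 5 of the 10576 genes with a window. The CHR and TCF letters share TTTGA but differ in the base after it, so no such stretch matches both. A match says that the letters are there, not that a factor binds, and no test of these shares was made.

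Genes outside the role lists were among the largest differences. Higher in APCs were Mmd2 (335 ± 50.4 in APCs, 11.2 ± 4.11 in FIPs; 4.83), Reep6, a shaper of endoplasmic reticulum membranes (665 ± 78.6 and 24.3 ± 5.52; 4.74), Cnmd, chondromodulin, an inhibitor of vessel growth (526 ± 90.4 and 21.8 ± 8.04; 4.58), and Tenm4, a teneurin (3.90). Alpl, tissue-nonspecific alkaline phosphatase, which preadipocytes and bone-forming cells express, was at 224, 248, 254 and 291 normalized counts in APCs and at 25.7, 37.9, 19.1 and 16.3 in FIPs (log2 difference 3.37 ± 0.22 SE, limma adjusted p = 1.54e-07), and the potassium channel gene Kcna2 differed by 3.29. Higher in FIPs were Efhd1, a calcium-binding mitochondrial protein (78.4 ± 11.7 and 2117 ± 211; -4.74), Aif1l (-4.94), Gap43, a growth cone protein (69.7 ± 24.4 and 1165 ± 48.3; -4.12), Islr2 (-3.82) and Pamr1 (354 ± 35.4 and 4834 ± 582; -3.76). Each of these genes was apart between the groups.

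Replicate 4 of the APCs carried RNAs that the other APC libraries nearly lacked. Of 10731 genes with a mean of at least 100 in the higher group, 46 were at least 2-fold above the mean of the other 3 APC libraries in it and 49 at least 2-fold below, against at most 19 in either direction in any of the other 7 libraries. Cxcl14, a chemokine, was at 51.6, 46.3, 45.04 and 1707 in APCs. Il1rl1, the interleukin 33 receptor, was at 14.4, 8.06, 10.01 and 384, and Cfd, adipsin, was at 38.0, 10.1, 12.9 and 453. In all 3 the high value was that of replicate 4 alone, and without it Il1rl1 was called higher in FIPs (-1.47). Acta2, smooth muscle actin, was at 221, 218, 156 and 2388 and Tagln, transgelin, at 318, 194, 281 and 1463. The contractile smooth muscle list summed to 19908 in replicate 4 and 15392 to 16235 in the other APC libraries, against 12415 to 13540 in FIPs, while the pericyte list was lowest in it, at 12876. The part of other cells in these values was not tested. Aldh1a2, a retinoic acid synthase, was at 26.2, 22.2, 15.7 and 221, and its difference moved from -0.55 (not called) to -1.38 (called higher in FIPs) without that library. Interferon-induced genes varied in both groups: that list summed to 17709 in APCs replicate 4 and 22598 in FIPs replicate 4, and to 11566 to 15000 in the other 6 libraries. Of its 25 tested members 2 were called with all 8 libraries, Ifit2 (-1.14) and Oas2 (-1.77), and 6 without APCs replicate 4. The 2 calls are 8.0% of the list, beside 9.9% of all genes. The Oas2 call was lost in 9 of 19 alternative settings, among them those without APCs replicate 1, 2 or 3 or FIPs replicate 2 or 4.

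**Figure D5:**
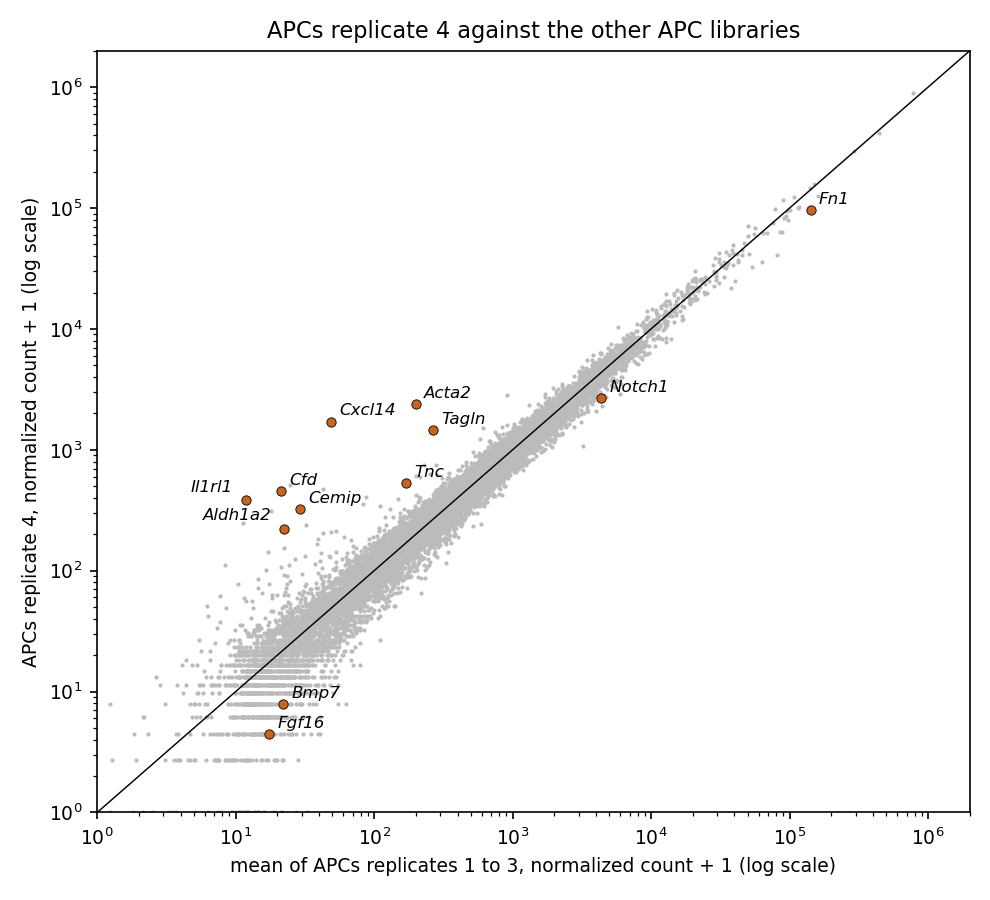
Each point is a tested gene; the x axis is its mean over APCs replicates 1 to 3 and the y axis its value in APCs replicate 4, both as normalized count + 1 on log scales, with the line of equality. Cxcl14, Il1rl1, Cfd, Acta2 and Tagln lie far above the line, Fgf16 and Bmp7 below it at low levels, and Notch1 and Fn1 below it at high levels.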

How the data were processed

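Bulk RNA-seq of sorted cells was measured in 16 libraries, of which the 4 APC and 4 FIP libraries were used. The authors deposited 1 table of normalized counts (a signal: reads per gene divided by 1 factor per library). Per the submitters' processing notes, the tools were HISAT2 2.0.1, Trim Galore 0.4.1, DESeq2 1.6.3 and featureCounts 1.4.6, and the builds GRCm38 and mm10. The annotation, strand setting and treatment of multiply mapped reads were not given in the sources used here, so reads of overlapping genes and close paralogs may be shared. Depth was recovered from the values: within 0.01 of a whole number, 100% of values in each library were whole multiples of 1 step. Of the 27179 genes, 1275 without a symbol are listed by Entrez number only.

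The value per gene was tested as log2(value + 1) with limma 3.58.1 in R 4.3.3 (moderated test with a trend, no covariate, two-sided, Benjamini-Hochberg over 13757 genes). edgeR 4.0.16 and DESeq2 1.42.0 were run on recovered reads of the 6 libraries (3 of each group) whose steps lie clear of 1. Other alternatives changed the pseudocount, filter, scaling, libraries, groups in the fit and replicate block. The limma script was checked on simulated data. Gene locations and promoter windows are from RefSeq on GRCm38.p6, matched by Entrez number for 13488 of the tested genes.

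The members and lists were chosen with earlier results of these data known. Genes were named by rule: the 15 largest rises and falls outside the leading lipid and progenitor lists with no overlap and a mean of at least 100, up to 5 called and 2 uncalled members per list, a panel of gate and lineage genes, and the genes furthest off in APCs replicate 4. Another 63 genes were chosen after their values were seen: Ackr1, Ackr4, Adm, Adora2b, Adrb3, Agtr1a, Aldh1a2, Angpt1, Angpt2, Angpt4, Axl, Bmp4, Ccnb1, Ccnd1, Cdh5, Cdk1, Cnr1, Cth, Cyp26b1, Ebf1, Ebf2, Edn1, Edn3, Emilin3, Ffar4, Fgf10, Fgfr1, Fgfr2, Fgfr3, Gas6, Gpat3, Gpd1, Has3, Hcar2, Hgf, Hoxc8, Hpgd, Igf1, Il4ra, Il6, Il6ra, Itga2, Lepr, Notch2, Ntn1, Ntrk2, Pecam1, Plau, Plaur, Postn, Ptgs2, Rspo2, Rspo3, Sema3a, Sema3f, Tlr2, Tlr4, Tnc, Wnt1, Wnt11, Wnt2, Zfp423 and Zfp521.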

Additional observations from a re-analysis of the deposited data

Results flagged for a closer look

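Every named gene was examined within each group of 4 libraries for 1 library far from the other 3, that is, a gap to the nearest library, as a share of the group's whole range, above Dixon's 95% critical value. Of 506 groups 34 held such a library, 6.72%. Chance gives about 1 in 20, but some genes were named because they lay furthest off in APCs replicate 4. The share therefore cannot be set against chance. Replicate 4 of the APCs was that library in 17 of the 34. Among the 17 were Cxcl14, Il1rl1, Cfd, Cemip, Acta2 and Tagln, which belong to the genes picked for lying far off in it.

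In APCs replicate 4 the high values, in normalized counts, were those of Acta2 at 2388 (the others 156 to 221), Akr1c18 at 12.1 (the others 0.845 to 2.14), Aldh1a2 at 221 (the others 15.7 to 26.2), Cemip at 323 (the others 15.1 to 54.1), Cfd at 453 (the others 10.1 to 38.0), Cx3cl1 at 58.8 (the others 14.1 to 20.3), Cxcl14 at 1707 (the others 45.0 to 51.6) and Gas6 at 2345 (the others 1236 to 1368). Further high values in it were those of Il1rl1 at 384 (the others 8.06 to 14.4), Itga2 at 81.3 (the others 18.1 to 27.9), Oas2 at 58.8 (the others 9.29 to 11.8), Pla2g4a at 374 (the others 225 to 237), Tagln at 1463 (the others 194 to 318) and Tnc at 533 (the others 142 to 188). The low values in it were those of Cebpa at 2824 (the others 3278 to 3364), Fbn1 at 62941 (the others 87483 to 89427) and Lama1 at 501 (the others 877 to 896).

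In APCs replicate 2 Cbs at 168 (the others 112 to 119) and Ccnb1 at 464 (the others 364 to 379) stood high, and Cidec at 19.1 (the others 33.6 to 36.3) and Dhrs3 at 653 (the others 703 to 709.9) stood low. In APCs replicate 3 Il6st at 11162 (the others 10315 to 10343) and Wnt1 at 0.715 (the others 0 to 0) stood high. That Wnt1 value is 1 read, so its flag does not set the library apart. In FIPs replicate 1 Gucy1b1 at 108 (the others 83.2 to 85.2) stood high. In FIPs replicate 2 Fgf16 at 263 (the others 245 to 246), Fgfr2 at 1326 (the others 1152 to 1169.6), Fras1 at 1409 (the others 1212 to 1232), Npnt at 169 (the others 129.7 to 133) and Smoc1 at 61.9 (the others 50.6 to 52.4) stood high, and Car8 at 289 (the others 342 to 347) and Dpp4 at 1645 (the others 2139.9 to 2219) stood low. In FIPs replicate 3 Gata2 at 102 (the others 60.1 to 65.3) and Timp3 at 7949 (the others 6858 to 7009) stood high. In FIPs replicate 4 Ifit2 at 892 (the others 644 to 683) stood high. No difference between 2 contrasts was examined, as there was 1 contrast.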

How the results depend on the processing

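Of the 253 genes named, 212 were called, and 187 of these kept the call and its direction in each of the 19 alternative settings that tested them; no called gene changed direction. Most of the calls lost lay near the 2-fold limit: scaling to equal totals lost 17 and quantile normalization 7, and equal totals added 4. Cxcl14 and Cfd, high in APCs replicate 4, were called higher in APCs by edgeR (4.27 and 3.50) and Cfd by DESeq2 (3.62), but not by limma. With a filter at 50 the number of genes higher in APCs was 472 in place of 715, with fewer genes tested (11593). With equal totals it was 1081, and without a filter 972 genes were higher in FIPs in place of 647, with 20828 tested; the cause was not tested. Leaving out 1 library at a time gave 688 to 753 genes higher in APCs and 633 to 677 higher in FIPs. The pseudocounts 0.5 and 8, quantile normalization, the fit of all 16 libraries, edgeR and DESeq2 gave 577 to 752 and 567 to 656. An alternative chosen after seeing the data, limma on the 6 libraries of the count tests, gave 700 and 613.

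Replicate numbers are shared by the groups, but nothing in the labels pairs them. The deviations of same-numbered libraries from their group means correlated at 0.14, 0.08, 0.13 and 0.15, so 1 of 4 pairs was not over 0.1 and the numbers were not taken to pair the libraries. APCs replicate 1 and FIPs replicate 2 correlated best with each other (0.31), and each of the other 6 libraries with its own number, which is a hint from the data, not the design. With the replicate number as a block 718 genes were higher in APCs and 658 higher in FIPs, and no call among the genes named changed.

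Depth limits low genes: APCs replicate 4 held 11.2 M reads, so 1 read was worth 1.73 normalized counts there and 0.71 to 1.01 in the other 7 libraries.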

Other observations

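Both subunits of soluble guanylate cyclase, the receptor for nitric oxide, were higher in APCs. Gucy1a1 was at 686, 646, 726 and 814 normalized counts in APCs and at 96.0, 96.1, 90.7 and 102 in FIPs (log2 difference 2.88 ± 0.09 SE, limma adjusted p = 3.63e-10), and Gucy1b1 at 402, 446, 491 and 427 normalized counts in APCs and at 108, 83.2, 85.0 and 85.2 in FIPs (log2 difference 2.28 ± 0.11 SE, limma adjusted p = 1.00e-08). The groups did not overlap in either gene. Both belong to the pericyte list, whose summed level was higher in APCs, and the part of mural cells was not tested. Of 36 tested carbonic anhydrases and transporters 8 were higher in APCs and 2 in FIPs (median 0.39). Car3, a carbonic anhydrase of fat and muscle, was at 5141, 4986, 5337 and 5124 normalized counts in APCs and at 112, 142, 129 and 135 in FIPs (log2 difference 5.31 ± 0.08 SE, limma adjusted p = 1.41e-12), with the APC libraries far above the FIP libraries. Car8, a relative without enzyme activity, was higher in FIPs (30.0 ± 3.80 in APCs, 331 ± 27.7 in FIPs; -3.42). The glutamate transporter Slc1a3 (1.75), the arginine transporter Slc7a2 (1.76) and the myo-inositol transporter Slc5a3 (2.08) were higher in APCs.

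Of 27 tested homeobox and patterning genes 7.41% were called, near the 9.9% of all genes: 1 was higher in APCs, Meox1, and 1 higher in FIPs, Hoxd9 (-1.10, but -0.90 without APCs replicate 3 and -0.89 without FIPs replicate 2, under the limit). Without APCs replicate 4, 4 of the 27 were called higher in FIPs, Prrx1 (-1.05) among them, and 1 higher in APCs. Hoxc8 averaged 1610.1 ± 153 in APCs against 949 ± 75.4 in FIPs, which was under the 2-fold limit (0.76; 1.01 and called with equal totals). Of 18 tested complement genes and relatives 11.1% were called, near the 9.9% of all genes. These were 2 genes higher in FIPs, C1qtnf1 (-1.18, but -0.93 and under the limit with equal totals) and Cd55 (-1.63). Without APCs replicate 4, 4 of the 18 were called higher in FIPs. C3, the central component, was not called (20228 ± 1755 against 15634 ± 1617, difference 0.37).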
